A study of Caenorhabditis elegans with 2 samples.

Results

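The peaks described here are 1264 peaks of SEM-2-eGFP signal in Caenorhabditis elegans embryos. They lay near annotated 5′ ends of protein-coding genes of 1 strand only. The direction in which these promoters are transcribed was not measured. The peaks were drawn from the 5000 rows of highest signal in the list that the authors made from both replicates together (30000 rows, here the combined list). Of these 5000 rows, 18 were mitochondrial and were left out. The combined list was deposited as peaks and background, so a row of it is not by itself a binding site. Of the 1264 peaks, 93 were also in the authors' thresholded list, described below. A nuclear peak was a member when its summit, the base of highest signal, lay within a window around the 5′ end, starting 1500 bp upstream and ending 500 bp downstream, of protein-coding genes of 1 strand only, and more than 100 bp from any tRNA, snoRNA, snRNA, miRNA or ncRNA gene. The members made up 25.4% of the 4982 nuclear peaks. Of the others, 371 lay in windows of genes of both strands (divergent promoters), 2502 lay outside all such windows and 845 lay near an RNA gene.

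Chromatin immunoprecipitation followed by sequencing (ChIP-seq) was done with an anti-GFP antibody on 2 biological replicates, numbered 1 and 3, of mixed-stage, mixed-sex embryos obtained by egg bleaching and labelled with an age of 1 hour. Both replicates were of strain OP701, a single transgenic line. Its embryos are mutant at the endogenous unc-119 locus (allele tm4063) and carry the transgene wgIs701, which adds a copy of sem-2 fused to TY1, EGFP and 3xFLAG, together with unc-119(+) for rescue. Whole embryos were sheared with a Bioruptor to fragments of 200 to 800 bp, and no second condition was sampled. The control that the labels name was not analysed here. Neither the depth of the libraries nor the scaling of the signal is given in the sources used here, so signals are compared only within a list.

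SEM-2 is the SoxC protein of C. elegans. Sox proteins are transcription factors that bind a short AT-rich core through an HMG box in the minor groove of DNA, and SEM-2 is known for its roles in embryonic development and, in the postembryonic M lineage, for promoting the sex myoblast fate. Many promoters in the worm's compact genome face a neighbour on the opposite strand, and one-strand promoters are those without such a neighbour within the window. In many worm genes the original 5′ end is removed by trans-splicing to a spliced leader, so an annotated 5′ end often marks the splice site rather than the start of transcription.

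The bases from 50 before to 50 after the summit are printed for 11 of the strongest members, along the strand of the nearest gene. They are shown because they range from GC-rich windows to the AT-rich window at lem-2, and because 5 of them share a spaced pair of words. Capitals mark this pair (TGCGGC followed 4 bases later by TTGC) or a run of 3 GA or CT units. The sequences are from RefSeq's WBcel235 assembly, which is the ce11 sequence, and coordinates are 1-based.
M01F1.9 (chrIII:3499993-3500093, minus strand): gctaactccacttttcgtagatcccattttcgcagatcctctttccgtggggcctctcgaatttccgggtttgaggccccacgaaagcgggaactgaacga
cbp-1 (chrIII:9765564-9765664, plus strand): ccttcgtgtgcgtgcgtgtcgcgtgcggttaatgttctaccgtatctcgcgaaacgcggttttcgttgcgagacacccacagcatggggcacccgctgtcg
rpl-3 (chrIII:3867538-3867638, plus strand): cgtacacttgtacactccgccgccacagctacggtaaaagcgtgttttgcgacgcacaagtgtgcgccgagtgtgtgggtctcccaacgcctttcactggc
C46F11.4 (chrIII:3664368-3664468, minus strand): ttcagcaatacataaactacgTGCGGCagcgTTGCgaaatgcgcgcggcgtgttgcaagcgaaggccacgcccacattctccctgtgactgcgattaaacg
ift-43 (chrII:5661850-5661950, minus strand): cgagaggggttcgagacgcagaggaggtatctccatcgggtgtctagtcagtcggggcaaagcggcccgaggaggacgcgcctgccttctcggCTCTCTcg
ccdc-47 (chrIII:3916787-3916887, plus strand): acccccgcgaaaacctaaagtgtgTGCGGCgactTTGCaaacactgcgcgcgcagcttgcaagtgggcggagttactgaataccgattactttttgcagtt
swsn-3 (chrIII:2768826-2768926, minus strand): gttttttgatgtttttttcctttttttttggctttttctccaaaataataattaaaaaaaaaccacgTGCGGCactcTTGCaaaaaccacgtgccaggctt
ntl-2 (chrII:4376891-4376991, minus strand): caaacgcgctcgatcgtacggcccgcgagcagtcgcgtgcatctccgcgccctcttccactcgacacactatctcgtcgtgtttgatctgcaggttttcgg
R148.3 (chrIII:3175129-3175229, plus strand): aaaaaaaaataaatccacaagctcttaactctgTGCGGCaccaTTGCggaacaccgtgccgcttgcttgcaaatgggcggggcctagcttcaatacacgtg
lem-2 (chrII:14063156-14063256, plus strand): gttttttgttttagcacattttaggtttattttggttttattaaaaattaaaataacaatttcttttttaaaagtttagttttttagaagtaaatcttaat
rps-28 (chrIV:1659207-1659307, plus strand): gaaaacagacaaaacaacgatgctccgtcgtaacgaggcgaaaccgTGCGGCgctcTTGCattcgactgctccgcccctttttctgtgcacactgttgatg

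The signals of the members, which chose them and are given as a description, were narrow in range for most peaks and long-tailed for a few. They ran from 83.3 to 600.2 in the combined list, with a median of 98.9 and quartiles of 89.7 and 116. The lowest members lay against the cut: D1079.1 had a signal of 83.28 and F54D10.5 of 83.26, while the next eligible peaks outside it, at rpb-2 and R02D5.1, had 83.24 for both. The deposited −log10 q-value of the members had a median of 1.09 and a lowest value of 0.692, and 134 members held the highest value of the list, 1.92. A thresholded list, the authors' 634 peaks from IDR analysis (irreproducible discovery rate, a measure of agreement between ranked lists), held 93 members, or 7.36%. Its rows were the 634 of highest signal in the combined list. Being in it does not by itself show a peak in each replicate list. Among all nuclear peaks used, 12.4% were in that list, and among divergent promoter peaks 22.1% were. As the thresholded list was cut on the same signal, these shares are read no further.

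The strongest member lay 986 bp upstream of M01F1.9 (chrIII:3499887-3500191), in an intron of another gene, with a signal of 600.2 in the combined list. Its overlapping peak ranked 81 of 30000 in replicate 1 and 31 in replicate 3. A peak 895 bp upstream of cbp-1, which encodes the worm's CBP/p300 histone acetyltransferase, had a signal of 438 and ranked 181 and 57. Both of these summits were GC-rich, at 53.5% and 60.4%, and both were among the strongest peaks of each replicate. The peak 266 bp upstream of rpl-3, a protein of the large ribosomal subunit, had a signal of 417 and ranked 139 and 76. At C46F11.4 the summit lay 114 bp upstream, with a signal of 404 and ranks of 131 and 115. The peak assigned to ift-43, named for a subunit of the intraflagellar transport machinery, lay 1114 bp upstream in an intron of another gene, with a signal of 376 and ranks of 174 and 87. These peaks thus stood within the first 200 of both lists at distances that ranged from 114 to 1114 bp.

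Several strong members were less even between the replicates. At ccdc-47 the summit lay 130 bp upstream, with a signal of 284 and a rank of 177 in replicate 1 against 710 in replicate 3. At swsn-3, which encodes a component of the SWI/SNF chromatin remodelling complex, the ranks were 218 and 1790. The opposite order was seen at ntl-2, a gene of the CCR4-NOT deadenylase complex, with 628 in replicate 1 and 124 in replicate 3. The member at rps-28, a protein of the small ribosomal subunit, was the 21st by signal (227) and ranked 226 in replicate 1, but no peak of replicate 3 overlapped it. This member was nonetheless in the thresholded list. The peak upstream of lem-2, which encodes an inner nuclear membrane protein, had a signal of 236 and was found at similar heights in the order of both lists, with ranks of 335 and 316. At eel-1, a HECT-type ubiquitin ligase, the summit 555 bp upstream ranked 253 and 114.

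By the rule applied to each replicate list alone, replicate 1 gave 1317 one-strand promoter peaks and replicate 3 gave 1167, with 376 and 282 divergent peaks. Of the 1264 members, 360 overlapped one of the 5000 strongest peaks in both replicates by at least 1 bp. This was 28.5% (95% Clopper-Pearson interval 26.0% to 31.1%, which covers counting error only), below the 33.3% of all nuclear peaks used. The share was 57.51% for peaks near an RNA gene, 37.47% for divergent promoter peaks and 26.98% for peaks outside windows. The members were thus below the first and second of these classes, while the share of peaks outside windows lay within the members' interval. In replicate 1 alone 64.2% of members overlapped one of the 5000 strongest peaks, against 63.4% of all nuclear peaks used. In replicate 3 these shares were 51.7% and 57.1%. There were 159 members (12.6%) that overlapped one in neither, near the 12.8% of all nuclear peaks used. Almost all members had some overlapping peak among the 30000 of each list, namely 1216 (96.2%) in replicate 1 and 1169 (92.5%) in replicate 3. Of all nuclear peaks used, 96.4% and 95.1% had one. The combined list pools both replicates, so these counts are not independent of the choice of members, and no test was made.

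The overlap followed the order of the signal. Of the 93 members in the thresholded list, 89 (95.7%) overlapped the 5000 strongest peaks of both replicates. The share was 85.5% among members 1 to 200 by signal, 140 of 400 among members 201 to 600 and 7.38% among members 601 to 1264. Over the 1122 members with a peak in both lists, the signal in replicate 1 and in replicate 3 had a Spearman's rho of -0.004, a description over peaks that were chosen on a signal pooled from both. Where a peak among the 5000 strongest overlapped, its summit was a median of 26 bp from that of the member in replicate 1 and 32 bp in replicate 3. Within the members, 76 (6.01%) overlapped another member, so those peaks are not separate regions.

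**Figure D1:**
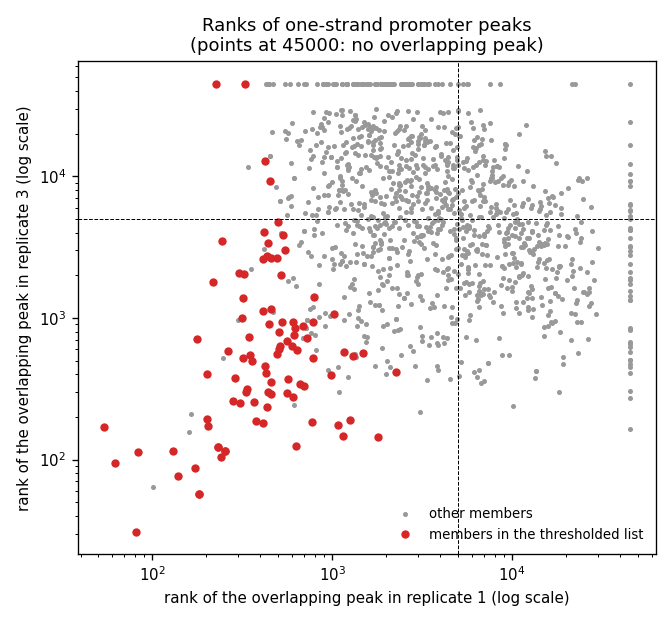
Each point is 1 one-strand promoter peak, placed by the rank of its strongest overlapping peak in replicate 1 and in replicate 3 (log scales; rank 1 is the strongest; dashed lines mark rank 5000; points on the outer edge had no overlapping peak). The 93 members in the thresholded list (red) sit towards the lower left, with 89 inside both lines, while the other members spread along both sides.

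In all, 15 members (1.19%), 4 of them in the thresholded list, had an interval that overlapped a peak near an RNA gene. They include K05F1.6 (signal 300), egg-5 (156), smvt-1 (137) and flp-23 (106). At smvt-1 the overlapping peak of replicate 3 ranked 64 although the member's own signal was the 161st among members, and at flp-23 the ranks were 164 and 210 with the 453rd signal. The replicate summits lay 142 to 217 bp from the member's own at egg-5, smvt-1 and flp-23, but 0 and 55 bp from it at K05F1.6. The part of the neighbouring RNA gene peaks in the values of these 15 members was not tested; leaving them out left the shares upstream, intergenic and on X within the SD of the replicates' own values.

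Position along the gene was free within the window, and summits gathered just upstream of the annotated 5′ end. With upstream positions negative, the median position was -266.5 bp and the quartiles were -877 bp and 37.25 bp. Upstream positions held 915 members (72.4%), against 72.9% of the bases that the position rule allowed, so both sides as a whole were filled in proportion. The density was 44.7 summits per Mb over the 28.3 Mb allowed. It reached 72.7 per Mb from 250 to 1 bp upstream, 51.9 per Mb in the first 250 bp downstream, 47.9 per Mb from 500 to 251 bp upstream, and 33.3 to 40.6 per Mb in the other bins.

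The bin from 250 to 1 bp upstream was the densest in each replicate, by more in replicate 1. From 250 to 1 bp upstream the density was 84.3 per Mb in replicate 1 and 50.7 per Mb in replicate 3. In the first 250 bp downstream it was 53.5 and 48.2 per Mb, and from 250 to 500 bp downstream 42.2 and 43.5 per Mb, so in replicate 3 the downstream bins were close to the highest. From 500 to 251 bp upstream it was 54.8 per Mb in replicate 1 and 34.3 per Mb in replicate 3, the latter no higher than farther upstream. The bin from 250 to 1 bp upstream also had the highest median signal, 103.4 against 96.1 to 102.6 in the other bins. Shares in both replicates and in the thresholded list follow the signal, so those of this bin are no separate support for its density. Its members were most often found in the 5000 strongest peaks of both replicates (37%, against 20.9% to 34.7% in the other bins), and 29 of the 93 members in the thresholded list lay there. In that list 83 members (89.2%) were upstream, and the median position of all 93, those downstream included, was 319 bp upstream. Divergent promoter peaks lay nearer to a 5′ end, with quartiles of -214.5 bp and 99.5 bp, in windows whose geometry differs by rule.

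**Figure D2:**
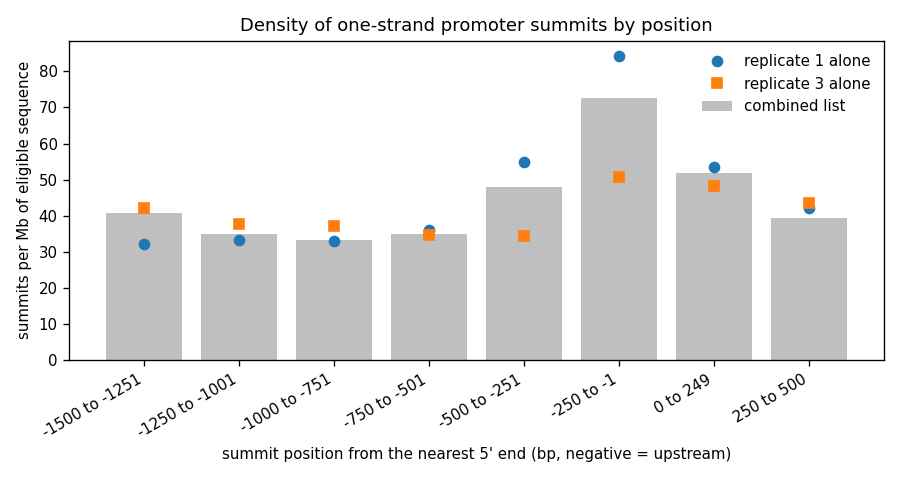
Density of summits per Mb of eligible sequence in 250 bp bins along the nearest gene, with bars for the combined list and points for the rule applied to replicate 1 or replicate 3 alone. The bin from 250 to 1 bp upstream is highest in all 3, at 72.7, 84.3 and 50.7 per Mb.

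Intergenic sequence held the most summits, and the 2 replicates differed in their share of it. In the combined list 663 summits (52.5%) were intergenic, 293 (23.2%) were in coding sequence, 216 (17.1%) in introns and 92 (7.28%) in other exon sequence of protein-coding genes. The allowed bases were 47.1% intergenic, 25% coding, 20.7% intronic and 7.18% other exon. Replicate 1 alone gave 55.4% intergenic and 17.3% coding summits, and replicate 3 alone gave 42.5% and 35.9%. With 1 list per replicate, this difference could not be tested against the spread between samples. Replicates differed in the same way within the members: of the coding members 46.1% overlapped the 5000 strongest peaks of replicate 1 and 59.7% those of replicate 3, and of the intergenic members 73.0% and 51.1%. Intergenic members were in both lists in 33.6% of cases, intronic members in 24.1% and coding members in 23.2%. Of the 93 members in the thresholded list 70 were intergenic and 4 coding. Of all members, 347 (27.5%) had their summit inside a gene whose 5′ window held it, and 254 (20.1%) only inside another protein-coding gene.

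The members were spread unevenly over the chromosomes. Per Mb of allowed sequence there were 65.5 members on chromosome III, 61.5 on I, 51.1 on X, 44.3 on II, 41.7 on IV and 22.7 on V. Chromosome V, where many of the worm's chemoreceptor genes lie, was lowest in both replicates (23.3 and 25.2 per Mb), and III was highest in both (72.5 and 56.2 per Mb). X held 227 members (95% interval of the share 15.9% to 20.2%), where it held 15.7% of the allowed bases and 13.7% of protein-coding genes. The share on X was 14.4% in replicate 1 and 18.3% in replicate 3, so its excess over the allowed bases was not seen in replicate 1. Of the divergent promoter peaks 6.74% were on X. The share of divergent window bases on X was not computed, so this value cannot be set against that of the members.

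Within 500 bp upstream, a gene on the same strand is often the neighbour in an operon, a cluster transcribed as 1 unit. For 297 of the 1170 nearest genes (25.4%) a same-strand neighbour ended within 500 bp, against 18.7% of the 19277 protein-coding genes with allowed bases. The nearest upstream neighbour was on the same strand for 69.1% and 56.5%. The rule itself favours such neighbours, since an opposite-strand 5′ end close by would put many summits in windows of both strands, the divergent class.

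A member lay in the window of 1232 of the 19973 nuclear protein-coding genes, 6.17%. Of the members, 1197 lay in the window of 1 gene and 67 in those of 2 same-strand genes, and 95 genes had 2 or more members. The most was 3, at F54F2.6, acbp-6, dyb-1 and pkn-1. Gene lists are given by their count beside this 6.17%; they were not tested, and the sizes of most are too small for a difference of a few genes to be read.

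Among genes of growth and housekeeping, the proportion with a member was 11 of 83 cytosolic ribosomal protein genes (13.3%), 10 of 70 mitochondrial ribosomal protein genes (14.3%), 5 of 44 translation factors, 4 of 33 proteasome genes and 6 of 61 chaperones. The ribosomal members included the peaks at rpl-3 and rps-28 and 1 at rpl-35, which had a signal of 216 and ranked 367 and 254. A member 262 bp upstream of eif-3.C, which encodes a subunit of the translation initiation factor eIF3, had a signal of 286 and ranks of 203 and 400. The member shared by K05C4.2 and the proteasome subunit gene pbs-5 had a signal of 496, the second highest of all, and ranks of 83 and 113. At hsp-1, an HSP70-family chaperone gene, the signal was 169 and the ranks 521 and 1995. In contrast to these strong peaks, the highest signal at a mitochondrial ribosomal protein gene was 125, and none of those 10 members was in the thresholded list, where the cytosolic ribosomal list had 5. Of 32 aminoacyl tRNA synthetase genes 1 had a member, and of 81 histone genes 5, near the level of all genes. The histone members were at the H3.3 genes his-70 and his-72 and at the linker histone genes hil-2, hil-3 and hil-5, of which the peak at hil-3 had the highest signal, 176, inside its coding sequence.

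Cell cycle and chromosome segregation genes had 10 of 82 with a member (12.2%). The strongest lay 180 bp upstream of him-17, a gene needed for meiotic double-strand breaks, with a signal of 224 and ranks of 290 and 376. Next came mcm-10, a DNA replication gene, with 165 and ranks of 613 and 754, and cki-1, which encodes a cyclin-dependent kinase inhibitor, with 141 and ranks of 2015 and 498. The first of these peaks were high in both orders, and the last was higher in replicate 3. Of 42 germline and maternal genes 2 had a member, at par-5 and pgl-2.

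In the Wnt pathway 6 of 33 genes (18.2%) had one, namely fmi-1, hmp-2, lin-17, lin-44, mig-1 and unc-37. The highest, with a signal of 304 and ranks of 201 and 193, lay in the windows of both K05C4.7 and the beta-catenin gene hmp-2. At fmi-1, which encodes a Flamingo-type cadherin, the signal was 118, and at unc-37, which encodes the Groucho corepressor, it was 109 with a rank of 899 in replicate 1 and 21308 in replicate 3. Of 47 genes of the Notch, TGF-beta, EGF and FGF pathways 6 had a member, led by the Grb2-type adaptor gene sem-5 (signal 138, ranks 1043 and 3192), with the TGF-beta receptor gene daf-1 (109) and the presenilin gene sel-12 (93.8) behind it. Of the 63 ceh homeobox genes 8 (12.7%) had a member, and none of these signals was above 106.

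Among embryonic tissue fate factors 5 of 40 (12.5%) had a member. They were led by ztf-11, a MYT1-family zinc finger gene, with a signal of 135 and ranks of 3871 and 643. The FoxA gene pha-4, which directs pharynx development, had a summit 1450 bp upstream with a signal of 98.7 and ranks of 17774 and 2120, so this member rested mainly on replicate 3. The T-box gene tbx-2 had a signal of 97.6 and ranks of 8110 and 5449, outside the 5000 strongest of both. At hlh-2, the E protein gene, the signal was 143 with ranks of 10166 and 237. In the mesoderm and M lineage list, the setting in which SEM-2 is best known, 1 of 16 genes had a member, the Schnurri-type gene sma-9, with a signal of 92.6 and ranks of 6304 and 2999. Muscle structure genes had 8 of 50, the strongest at the kindlin gene unc-112 (signal 137, ranks 821 and 4857), then at the obscurin gene unc-89 (105, ranks 4152 and 2110) and the actin gene act-3 (99.3, ranks 15813 and 1625).

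Of 1365 chemoreceptor genes 10 (0.733%) had a member, the lowest share among the lists with any. Other large families were nearer to the 6.17% of all genes, with 12 of 269 nuclear hormone receptor genes (4.46%). F-box genes were at 16 of 327 (4.89%), cuticle collagens 13 of 175 (7.43%) and neuronal differentiation genes 11 of 129 (8.53%). The collagen gene dpy-17 had its summit 1 bp upstream of the annotated 5′ end, with a signal of 144 and ranks of 970 and 1031. In the neuronal list the member shared by emr-1 and the neuropeptide gene nlp-12 was highest, at 111.8, in a window of 21.8% GC.

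None of the 5 Sox genes sem-2, sox-2, sox-3, sox-4 and egl-13 had a member in its window. No peak of the combined list lay in the window of sem-2 or sox-4. The best peaks at egl-13, sox-2 and sox-3 ranked 7697, 10688 and 27521 of 30000. The rescue gene unc-119, present in added copies in this strain, had a peak 65 bp upstream that ranked 8611 with a signal of 70.6, below the cut.

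**Figure D3:**
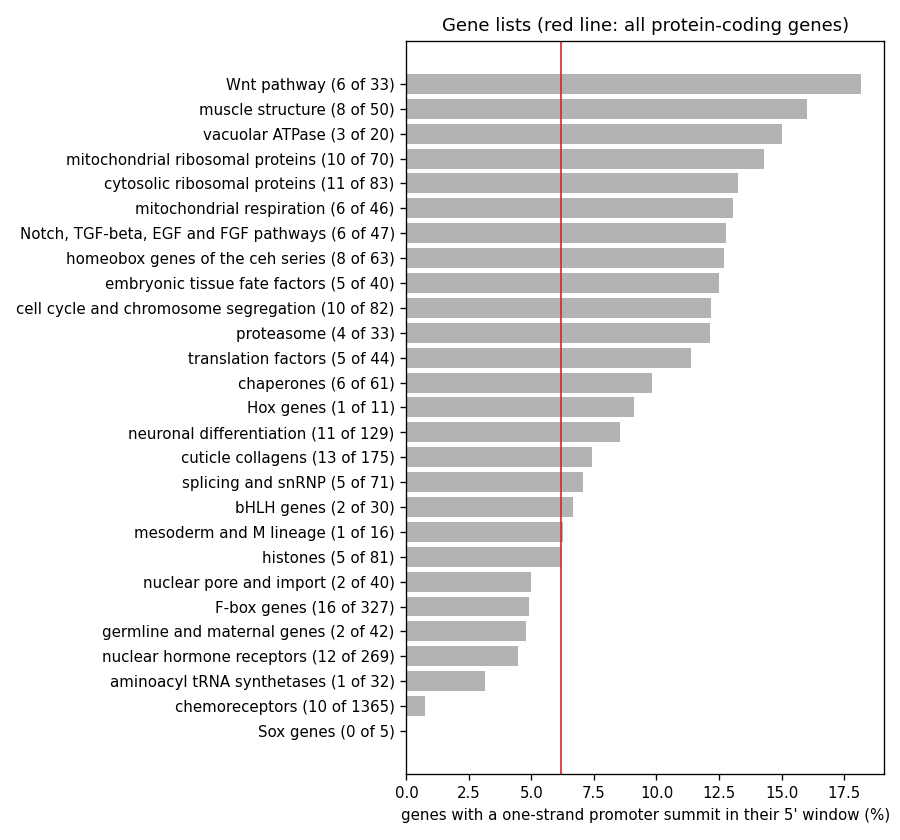
Percent of genes of each list with a one-strand promoter summit in their 5′ window, with the number of genes beside each name. The line marks the 6.17% of all protein-coding genes; Wnt pathway genes are at 18.2% and chemoreceptors at 0.733%.

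The DNA under the summits was richer in G and C than the DNA beside it. In windows from 50 bp before to 50 bp after the summit the GC content was 45.7% ± 9.40 (SD over 1264 members), against 34.7% ± 8.50 in windows of that length 500 bp upstream and 36.6% ± 9.09 in windows 500 bp downstream. The difference from the upstream window was 11 ± 12.1 percentage points, and 1012 members (80.1%) were higher at the summit than upstream. All 280033 eligible windows of this length averaged 35.1% ± 8.35. The increase was present in every kind of sequence: intergenic summits had 45.5% GC where eligible intergenic windows had 33.6%, intronic summits 43.6% against 32.8%, and coding summits 48.5% against 40.4%. CG dinucleotides numbered 5.21 per summit window, 3.13 in the upstream and 3.60 in the downstream windows. The members in the thresholded list had 49.6% ± 9.49 (n = 93). The summit windows ranged widely, as at lem-2, 1 of the 82 members under 30% GC, whose window of 15.8% holds long runs of A and T. The part of base composition in the immunoprecipitation, amplification or mapping was not tested, as no control was analysed. In replicate 1 alone the difference from the upstream window was 8.12 percentage points and in replicate 3 alone 11.4.

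**Figure D4:**
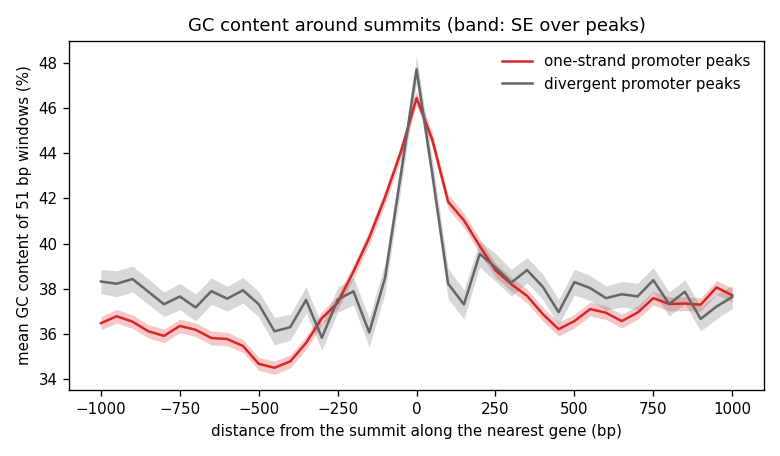
Mean GC content in 51 bp windows against distance from the summit along the nearest gene, with a band of 1 SE over peaks, for the 1264 one-strand and the 371 divergent promoter peaks. One-strand peaks rise from 34.5% at 450 bp upstream to 46.5% at the summit and are broader than divergent peaks, which reach 47.7%.

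Sequence did not choose the members, so motifs at the summits could be tested against the windows 500 bp upstream of the same peaks. Of 7 motifs, searched on both strands, each pair of windows was compared with McNemar's exact test, two-sided, with Benjamini-Hochberg adjustment over the 7; peaks are the units, so these p-values leave out the variation from embryo sample to embryo sample. The Sox core, ACAAAG or else ACAATG, was in 130 summit windows (10.3%) and in 132 upstream windows (10.4%). It was in 116 summits alone and in 118 upstream windows alone (McNemar's exact test, adjusted p = 1), and in 11.7% of all eligible windows. In this comparison the core was no more common at the summits than beside them. At equal GC content the shares of members and of eligible windows differed in both directions. They were 15.9% and 10.5% below 30% GC, 11.7% and 12.8% at 30% to 40%, and 13.4% and 11.9% at 40% to 50%. At 50% to 60% GC they were 4.87% and 8.27%, and from 60% up 2.78% and 4.09%. The part of GC content in the comparison with the upstream windows was not tested.

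The GA repeat GAGAGA was more common at summits than upstream. It was in 175 summit windows (13.8%), 75 upstream windows (5.93%), 56 downstream windows (4.43%) and 5.38% of eligible windows, and it was in 173 summits alone against 73 upstream windows alone (McNemar's exact test, adjusted p = 5.4e-10). The difference of 7.91 percentage points was 6.53 in replicate 1 alone (exact test, adjusted p = 2.2e-07) and 3.94 in replicate 3 alone (exact test, adjusted p = 0.0026). It was 16.9 among the 515 members with no exon in either window. At equal GC content members also had it more often: in windows of 40% to 50% GC, 15.1% of the 530 members and 8.16% of eligible windows had it, and in windows of 50% to 60% GC, 17.2% of 349 members and 10.1%. Read along the gene, the word GAGAGA was in 62 members and the word CTCTCT in 91. CTCTCT is not the reverse complement of GAGAGA, which is TCTCTC, so these counts do not split the 175 by strand. The longest run of alternating GA or CT was 41 bases, and 21 members had a run of 12 or more. The GA repeat was also present at 16 of the 93 members in the thresholded list (17.2%). One of them was ift-43, where it overlaps the run marked in capitals.

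The AT-rich motifs were less common at summits. The T run TTTTTT was in 21.4% of summit windows and 43.4% of upstream windows (McNemar's exact test, adjusted p = 1.5e-31), and the TATA box TATAAA in 64 and 152 of them (adjusted p = 1.7e-09). The word TTTCAG, the acceptor used in trans-splicing and splicing, was in 12.3% and 19.1% (McNemar's exact test, adjusted p = 3.4e-06). In replicate 1 alone the difference of TTTCAG was -3.42 percentage points (exact test, adjusted p = 0.042) and in replicate 3 alone -7.71, against -6.72 in the combined list. In windows of 40% to 50% GC the T run was in 18.7% of members and 18.9% of eligible windows, the TATA box in 4.72% and 4.44%, and TTTCAG in 13.0% and 15.4%. In windows of 30% to 40% GC the T run was in 37.2% of members and 39% of eligible windows, the TATA box in 9.09% and 11.01%, and TTTCAG in 17.7% and 22.1%. The part of GC content in these differences was not tested. The E box CACGTG was in 37 summit windows (2.93%) and in 31 upstream windows (McNemar's exact test, adjusted p = 0.76). In replicate 3 alone, and in the 360 members found in both replicates (a subset chosen after the data were seen), the E box was more common at summits in the same exact test, by 1.63 percentage points (adjusted p = 0.015) and 3.33 percentage points (adjusted p = 0.024). The B box GTTCNANNC, a promoter element of RNA polymerase III, was in 42 summit windows and 42 upstream windows (exact test, adjusted p = 1).

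**Figure D5:**
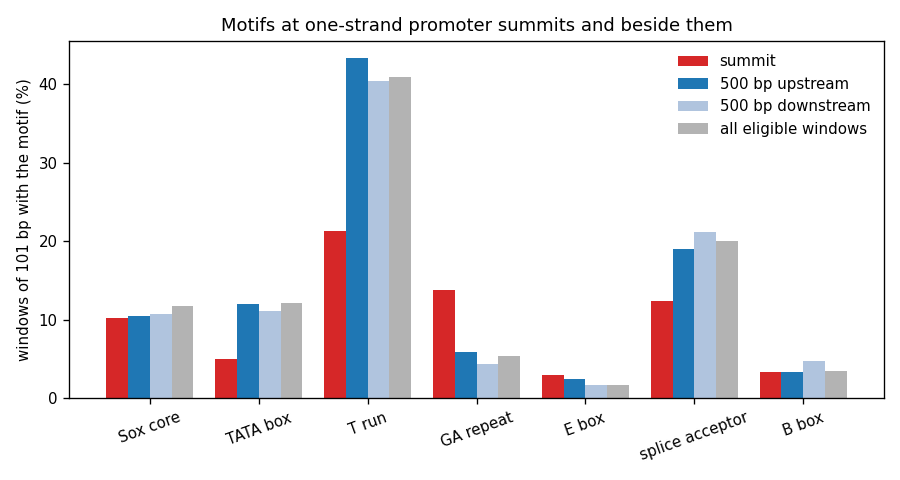
Percent of windows (50 bp either side of the centre) that hold each of 7 motifs at the summit, 500 bp upstream, 500 bp downstream and in all eligible windows. The GA repeat is higher at summits (13.8%) than beside them, the T run, TATA box and splice acceptor are lower, and the Sox core is level.

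One-strand and divergent summits were compared for the same 7 motifs with Fisher's exact test, two-sided, over 1264 and 371 windows. No motif passed an adjusted p of 0.05. The lowest was for the T run, in 21.4% of one-strand and 27.2% of divergent summit windows (Fisher's exact test, unadjusted p = 0.02, adjusted p = 0.14). The Sox core was in 10.3% and 11.9% (Fisher's exact test, adjusted p = 0.53), the GA repeat in 13.8% and 10.5% (adjusted p = 0.32). The p-values do not show that the classes are alike.

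The spaced pair of words marked in the printed sequences was found after the sequences were seen, so it is a description with no test. TGCGGC followed 4 bases later by TTGC was in the summit window of 10 members. Of these, 8 were among the 93 members in the thresholded list and 2 among the other 1171. The printed sequences in which the pair was first seen are all among the 8, so this split is not independent of how the pair was found. The pair was in 1 upstream window and in no downstream window. It was on the gene's strand in 9 of the 10, with clec-53 the exception, and its centre lay 2.5 to 39.5 bp from the summit. The 10 members were K05C4.2, C46F11.4, ccdc-47, swsn-3, R148.3, clec-53, rps-28, gtsf-1, set-25 and vps-39, and 7 overlapped the 5000 strongest peaks of both replicates. The rule applied to replicate 1 alone gave 8 members with the pair and to replicate 3 alone also 8. Among divergent promoter peaks 19 of 371 had it, among peaks outside windows 4 of 2502 and among peaks near RNA genes 1 of 845. Of 580 occurrences in the nuclear genome 35 lay in a summit window of the 5000 strongest peaks, so most occurrences had no such peak.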

How the data were processed

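ChIP-seq peak lists of 2 embryo replicates were analysed. Per the deposited file listing, the authors called peaks and background on ce11 for each replicate and for both replicates together, as input for IDR, and made 1 thresholded list by IDR; aligner, caller and thresholds: not given in the sources used here. The deposited signal is the caller's own value, of unstated scaling, and was used only to rank peaks within a list. The deposited −log10 q-value is in the narrowPeak order, as is the deposited summit offset. The authors' lists give no read counts, so depth is unknown and intervals cover counting error over peaks only. The labels call the replicates separate biological samples.

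Gene positions came from Ensembl (WBcel235 annotation) and bases from RefSeq's WBcel235 FASTA, read with Python 3.11.15, pandas 2.3.3, NumPy 2.4.6 and SciPy 1.17.1. A gene's 5′ end was the end of its gene record. Allowed bases are all nuclear bases that the position rule would accept; eligible windows are their tiles of the summit windows' length. Replicate peaks were matched by 1 bp of overlap, taking the strongest. McNemar's exact test recovered a planted GAGAGA in simulated windows. Summit and flank windows were simulated with the same base composition, so the GC difference between the real windows was not covered. Named members were the 20 of highest signal, up to 3 of highest signal for each of 27 gene lists, the 5 with the best lower rank over both replicates, the Sox genes with unc-119 and those at the cut, of which 1 is not reported here; gtsf-1, set-25 and vps-39 were named for the word pair after it was seen. The members, lists and motifs were chosen with earlier results of these data known.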

Additional observations from a re-analysis of the deposited data

How the results depend on the processing

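The number of members, their shares, positions, GC difference, motifs and list genes were recomputed under other cuts, windows and replicates, and 131 of 173 values kept the result. Shares upstream, intergenic and on X, the median position and the GC difference kept it within the SD of the replicates' own values. That margin was wide for the intergenic share, where 47.3% with 10000 rows and 58.6% with 2500 rows counted as kept, against 52.5%. Motifs kept it with the same direction and the same call. The shares in both replicates and in the thresholded list were not recomputed without a replicate, list genes were not recomputed with transcript ends, and densities and the word pair had no alternatives. The directions and calls of the T run, TATA box, splice acceptor and GA repeat held in all 12 alternatives run for each, but their sizes moved: the GA repeat from 3.94 (without replicate 1) to 16.9 percentage points (without exonic windows), and the splice acceptor to -3.42 without replicate 3. With the 2500 or the 10000 strongest rows there were 599 or 2533 members, 75.8% or 69.0% upstream, 15.5% or 3.67% in the thresholded list, 51.9% or 15.8% in both replicates, and 80 or 325 list genes against 168. With a window of 500 bp upstream to 250 bp downstream there were 770 members, 70.0% upstream at a median of -123.5 bp, 11.2% in the thresholded list and 32.9% in both replicates. With transcript ends 70.3% were upstream and 40.6% intergenic; the cause was not tested. The share in both replicates was 25.7% when at least 0.5 of the member had to overlap, 19.6% with summits within 100 bp and 88.8% over any of the 30000 peaks. Leaving out 1 replicate gave 69.9% to 72.2% upstream, a median of -338 to -241 bp, 42.5% to 55.4% intergenic, 14.4% to 18.3% on X and a GC difference of 8.12 to 11.4 percentage points.

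The Sox core passed McNemar's exact test in no alternative; its difference of -0.16 percentage points turned to 0.20 with 10000 rows (adjusted p = 0.88), 0.52 in the shorter window (0.93), 0.49 with transcript ends (0.80), 0.46 without replicate 3 (0.88) and 1.39 in members found in both replicates (0.73); without replicate 1 it was -1.03 (0.49). The E box difference was -0.78 without exonic windows. Chosen after seeing the data, the 360 members found in both replicates had 79.2% upstream, 21.7% on X, 61.9% intergenic, a GC difference of 14.1 percentage points and 47 list genes. Depth is unknown and 2 replicates give no test of signal; no paired analysis was possible because there was 1 group.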
